A study of Mus musculus with 6 samples.

Results

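Ppp1r16b, Ttll9, Necab3, Gm14230, Samhd1 and Ndrg3 are genes of the distal part of mouse chromosome 2 whose RNA differed clearly between WT and Ikzf4-/- T helper 2 (Th2) cells, and Tgif2 is a direct neighbour of Gm14230. All 7 were chosen on that same difference, or for lying beside such a gene, so their genotype values are a description. Where the text says which of them were called, or how near a threshold they lay, this describes the choice and supports nothing. They are 7 of the 14868 genes in the deposited table, and each passed the filter on low values (the 6 libraries had to average 10 or more). Together they span chromosome 2 from 152962485 to 158766334 on GRCm38, a stretch of 5.80 Mb in which 94 genes were tested.

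The study compared 3 libraries of WT cells with 3 libraries of Ikzf4-/- cells. These are labelled as knockout for the gene of Eos, a zinc finger transcription factor of the Ikaros family. All 6 libraries held total RNA of naïve CD4+ T cells on a C57BL/6J strain background, kept for 72 h on plate-bound anti-CD3 (5 µg/mL) and anti-CD28 (2 µg/mL) with 10 µg/mL anti-Ifng and 10 ng/mL IL-4. Anti-CD3 and anti-CD28 mimic antigen contact and co-stimulation, and IL-4 with blocked interferon gamma drives Th2 differentiation. The labels do not give the number, age or sex of the mice, how the Ikzf4 allele was made, or whether replicates came from separate animals, so the tests measure the spread between these libraries, which may be technical.

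Ikaros-family proteins bind DNA through zinc fingers at sites with the core GGGAA and are known mostly as regulators of lymphocyte genes. Whether the 7 genes share a pathway was not tested. Ppp1r16b (also called TIMAP) is a membrane-anchored targeting subunit of protein phosphatase 1 (PP1), an enzyme that removes phosphate from serine and threonine. Samhd1 breaks down deoxynucleoside triphosphates (dNTPs), the building blocks of DNA, and so limits their pool. Tgif2 is a homeodomain repressor of TGF-beta target genes. Ndrg3 belongs to the N-myc downstream-regulated family, Ttll9 to the tubulin tyrosine ligase-like enzymes, which add amino acids to tubulin, and Necab3 to a family of calcium-binding EF-hand proteins. Gm14230 is annotated as a long intergenic noncoding RNA.

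Sequence at the start sites is shown for the pair of genes that share a start region and for the 3 protein-coding genes with the largest fold changes. The first sequence is the plus strand of chr2:156839757-156840056 (GRCm38), where Gm14230 is transcribed to the left and Tgif2 to the right, and the capitals mark the stretch between their GENCODE starts:
Gm14230 and Tgif2: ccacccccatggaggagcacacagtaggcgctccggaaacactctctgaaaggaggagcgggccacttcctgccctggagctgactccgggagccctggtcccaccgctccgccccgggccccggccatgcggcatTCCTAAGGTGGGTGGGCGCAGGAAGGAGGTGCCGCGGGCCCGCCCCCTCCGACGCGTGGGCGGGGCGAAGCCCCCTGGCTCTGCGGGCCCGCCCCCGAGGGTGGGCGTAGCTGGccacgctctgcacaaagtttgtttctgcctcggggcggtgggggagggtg
That stretch runs from 156839893 to 156840006 and is 114 bases long, with 13 CpG dinucleotides and 78.9% G or C. The next 3 sequences are RefSeq promoter windows on GRCm38.p6 (250 bases before to 50 after a start, on the gene's own strand), with capitals at each GGGAA or its reverse complement TTCCC. They are chr2:152962235-152962534 (plus strand), chr2:158666885-158667184 (plus strand) and chr2:154558804-154559103 (minus strand):
Ttll9: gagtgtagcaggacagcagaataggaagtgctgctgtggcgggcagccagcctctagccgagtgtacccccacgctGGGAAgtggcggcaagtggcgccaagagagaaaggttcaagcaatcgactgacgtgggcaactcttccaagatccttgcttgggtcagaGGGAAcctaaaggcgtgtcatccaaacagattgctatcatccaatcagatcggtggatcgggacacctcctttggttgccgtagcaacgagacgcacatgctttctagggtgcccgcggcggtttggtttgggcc
Ppp1r16b: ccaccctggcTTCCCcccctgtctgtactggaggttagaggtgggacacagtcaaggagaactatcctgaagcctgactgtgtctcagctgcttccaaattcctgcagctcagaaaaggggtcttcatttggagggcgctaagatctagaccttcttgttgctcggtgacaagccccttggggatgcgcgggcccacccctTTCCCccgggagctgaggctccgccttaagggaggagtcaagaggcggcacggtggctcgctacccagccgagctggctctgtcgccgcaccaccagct
Necab3: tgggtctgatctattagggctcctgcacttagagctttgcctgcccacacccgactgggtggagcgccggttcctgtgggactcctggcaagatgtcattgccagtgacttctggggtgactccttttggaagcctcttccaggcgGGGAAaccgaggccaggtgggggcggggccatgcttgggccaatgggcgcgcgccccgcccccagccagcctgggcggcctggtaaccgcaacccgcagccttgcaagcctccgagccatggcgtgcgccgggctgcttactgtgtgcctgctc
All 7 genes matched the RefSeq table, with 10 windows between them. GGGAA was searched on both strands and lay in 5 windows of 4 genes, Ttll9, Necab3, Gm14230 and 1 of the 2 windows of Ppp1r16b. Its letters were not in the windows of Tgif2, Ndrg3 and Samhd1. Among all 32851 RefSeq promoter windows of this length, 62.7% hold GGGAA, beside 5 of the 10 windows here, a share no higher than the general one. The 2 windows of Necab3 are nearly the same (RefSeq starts 154558853 and 154558854). The longer TGGGAA, which contains GGGAA, lay in windows of Ttll9 and Gm14230 and in 25.6% of all windows. The RefSeq start of Gm14230 (156838089) differs from the GENCODE start (156839892), and both RefSeq starts of Ppp1r16b lie inside its GENCODE gene.

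Ikzf4, the knocked-out gene, lies on chromosome 10. The WT libraries held 756, 499.6 and 483 normalized reads of it and the Ikzf4-/- libraries 25.2, 10.5 and 38.2, so each library matched its label. Estimated depth was 34701390 to 40604346 reads per library. All 7 CD4 T cell markers were in the table, with sums of 95677 to 101753 across the libraries and 1 of them called (Cd5, log2 fold change 0.33, limma adjusted p = 0.0306), and the 4 Th2 markers, 2 of them called, summed to 11978 to 13163 in WT and 8982 to 10313 in Ikzf4-/- libraries, whose part in the results was not tested. None of the 5 myeloid markers and 2 of the 5 B cell markers were in the table, the latter with sums of 51.1 to 90.4, and CD8 T cell markers summed to 232 to 423. Xist RNA was 4.26, 3.59 and 0.971 in WT and 2.02, 85.8 and 110.5 in Ikzf4-/- libraries, while Ddx3y of the Y chromosome was 2375 to 2818 in all 6, and the part of this difference in the results was not tested.

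Ppp1r16b was the most increased of the 7. Its identifier in the table is ENSMUSG00000037754. It is transcribed from the plus strand (158665398 to 158766334) and had 2626, 3719 and 3495 normalized reads in WT replicates 1 to 3, against 7028, 8387 and 9342 in Ikzf4-/- replicates 1 to 3. The lowest Ikzf4-/- library stood well above the highest WT library. The mean was 3280 ± 577 (SD, n = 3) in WT and 8252 ± 1163 (SD, n = 3) in Ikzf4-/- cells, so that the fitted log2 fold change was 1.34 (SE 0.13, 95% confidence interval 1.06 to 1.62). In bulk RNA, more cells of a type and more RNA per cell cannot be told apart, for this and the other genes. Fold changes here are Ikzf4-/- over WT on the log2(value + 1) scale. The authors' deposited table lists 1.33 for Ppp1r16b.

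Gm14230 (ENSMUSG00000087179, minus strand, 156833049 to 156839892) had 359, 335 and 326 normalized reads in WT libraries, and 657, 769 and 774 in Ikzf4-/- libraries. The groups did not overlap, and the WT libraries lay within a narrow band. Its mean went from 340 ± 16.9 to 733 ± 66.3 (SD, n = 3 each), a log2 fold change of 1.10 (SE 0.10).

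Tgif2 (ENSMUSG00000062175, plus strand, 156840007 to 156855570), which starts 114 bases from Gm14230 and points away from it, had 411, 589 and 468 normalized reads in WT and 482, 439 and 446 in Ikzf4-/- libraries. The groups overlapped, with the widest spread among the WT libraries. The log2 fold change was -0.09 (SE 0.13) with a 95% confidence interval of -0.37 to 0.19, an interval that leaves out a change as large as that of Gm14230. Per kb of exon, the ratio of Gm14230 to Tgif2 reads was 3.14, 2.04 and 2.51 in WT libraries and 4.90, 6.31 and 6.23 in Ikzf4-/- libraries, with means of 2.56 ± 0.549 and 5.81 ± 0.794 (SD, n = 3 each). Per kb of annotated exon, the noncoding RNA was thus the more abundant of the pair in each library, and the ratios of the genotypes did not overlap. In normalized reads not divided by exon length, Tgif2 was above Gm14230 in each WT library. A comparison chosen after these values were seen took 190 head-to-head pairs of a noncoding and a protein-coding gene with starts within 1000 bases. Called were 1 noncoding gene, Gm14230, itself chosen on this contrast, and 2 coding partners (Psrc1 and Atxn1). No pair was called on both sides. Of all genes tested 1.77% were called, and nothing is read from these counts. The median absolute gap between partners' log2 fold changes was 0.23. On the opposite strand, Tgif2 overlaps 5430405H02Rik and Gm37790, with log2 fold changes of 0.04 and -0.64 (limma adjusted p = 0.958 and 0.359). Whether the counting used strand is not given in the sources used here, so reads of these overlapping genes may not be told apart.

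Necab3 (ENSMUSG00000027489, minus strand, 154544399 to 154558890) was a low-abundance gene, with 45.8, 32.3 and 50.5 normalized reads in WT and 92.8, 100.5 and 78.4 in Ikzf4-/- libraries. Every Ikzf4-/- library was above every WT library. Its mean went from 42.9 ± 9.40 to 90.6 ± 11.2 (SD, n = 3 each), a log2 fold change of 1.08 (SE 0.24). Necab3 overlaps 1700003F12Rik and Actl10 on the opposite strand, which are absent from the deposited table.

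Ttll9 (ENSMUSG00000074673, plus strand, 152962485 to 153008482) was the most decreased of the 7. It had 27.7, 41.3 and 34.0 normalized reads in WT libraries and 10.1, 1.05 and 5.02 in Ikzf4-/- libraries, where 1.05 is the smallest value above 0 that replicate 2 can take. All 3 Ikzf4-/- libraries lay below the WT libraries. The mean went from 34.3 ± 6.83 to 5.39 ± 4.53 (SD, n = 3 each), a log2 fold change of -2.76 (SE 0.58). With so few reads the size of the change is uncertain, with a 95% confidence interval of -4.03 to -1.49. Ttll9 passed the filter through its WT libraries alone, and the authors' deposited table gives it a log2 fold change of -2.67 with no adjusted p-value. Its annotated antisense partner Gm14199 is absent from the deposited table.

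Samhd1 and Ndrg3 were decreased by smaller amounts at high abundance. Samhd1 (ENSMUSG00000027639, minus strand, 157097533 to 157135265) had 9072, 7864 and 7481 normalized reads in WT libraries and 6124, 6480 and 6456 in Ikzf4-/- libraries. The WT libraries were spread more widely than the Ikzf4-/- libraries, without overlap. The mean went from 8139 ± 831 to 6353 ± 199 (SD, n = 3 each), a change of -21.9% and a log2 fold change of -0.35 (SE 0.07). Ndrg3 (ENSMUSG00000027634, minus strand, 156927345 to 156992056) had 1508, 1474 and 1470 normalized reads in WT libraries and 1124, 1057 and 1179 in Ikzf4-/- libraries. Both groups were tight and apart. The mean went from 1484 ± 21.1 to 1120 ± 61.1 (SD, n = 3 each), a change of -24.5% and a log2 fold change of -0.41 (SE 0.06). Samhd1 and Ndrg3 are on the same strand, 0.105 Mb apart, with 3 tested genes between them.

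**Figure D1:**
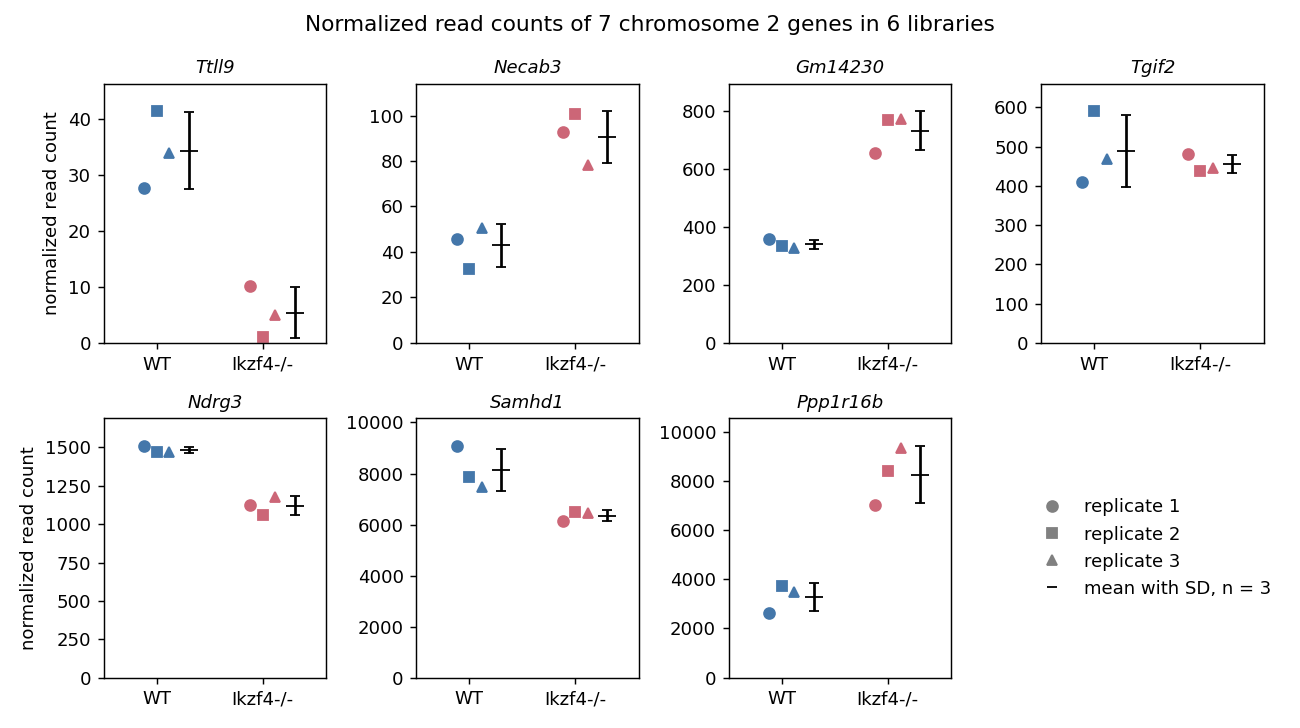
Normalized read count (linear axis from 0) of each gene in the 3 WT and 3 Ikzf4-/- libraries, in chromosome order. Symbols mark replicates and bars the mean with SD (n = 3). The genotypes are apart for 6 genes and overlap for Tgif2.

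A gene was called where limma's p-value, adjusted by Benjamini-Hochberg over 14864 genes tested, was under 0.05. By this rule 6 of the 7 were called, 3 higher and 3 lower in Ikzf4-/- cells, where 1.77% of all genes tested were called, 0.572% higher and 1.2% lower. For 6 of the 7, and for 23.1% of all genes tested, WT and Ikzf4-/- libraries did not overlap. An adjusted p under 0.05 in the authors' deposited table was held by 5 of the 7, and by 6.34% of the genes with an adjusted p there. The choice of the 7 sets these counts, and nothing is read from them. Of the genes inside the threshold, Necab3 lay nearest to it (limma adjusted p = 0.0490), followed by Ttll9 (limma adjusted p = 0.0439). Just outside lay Nol4l (log2 fold change 0.62, limma adjusted p = 0.0536) and Map1lc3a (-0.38, 0.0668), the latter a gene of autophagosome formation.

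How far the calls depend on single libraries is described next; since the same libraries chose the genes, a kept call is no further support. Ppp1r16b (log2 fold changes of 1.18 to 1.45) and Gm14230 (1.06 to 1.18) were called in each of 6 fits that left out 1 library. Samhd1 (-0.41 to -0.27) and Ndrg3 (-0.44 to -0.37) were called in 2 of 6, without WT replicate 1 and without WT replicate 3. Ttll9 (-3.31 to -2.09) was called in 2 of 6, without WT replicate 1 and without Ikzf4-/- replicate 1, and Necab3 (0.89 to 1.21) in 1 of 6, without WT replicate 3. The number of the 7 that were called was therefore 5 without WT replicate 1 or 3, 3 without Ikzf4-/- replicate 1, and 2 without WT replicate 2, Ikzf4-/- replicate 2 or Ikzf4-/- replicate 3. Directions of the 6 differing genes were kept in these fits, while Tgif2 went from -0.21 to 0.05, positive without WT replicate 2. With a pseudocount of 0.1, Ttll9 (-3.12, limma adjusted p = 0.0574) and Necab3 (1.09, limma adjusted p = 0.0503) were no longer called. With a pseudocount of 10 the log2 fold change of Ttll9 was -1.56, and it was called.

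**Figure D2:**
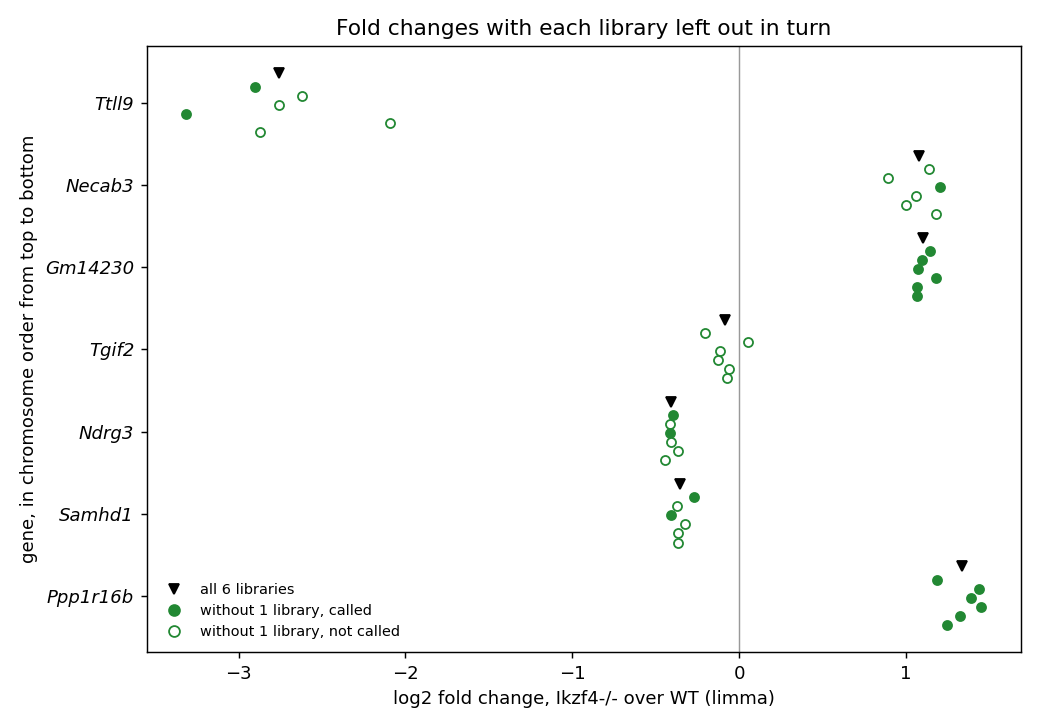
Log2 fold change (Ikzf4-/- over WT, limma) of each gene with all 6 libraries (triangle) and with each library left out (circles, from the top WT replicates 1 to 3, then Ikzf4-/- replicates 1 to 3). Filled circles are called at an adjusted p under 0.05: all 6 for Ppp1r16b and Gm14230, and none for Tgif2.

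The levels of the 7 genes were compared per kb of annotated exon. In WT cells Samhd1 was highest at 889 ± 90.8 normalized reads per kb (SD, n = 3), followed by Ppp1r16b at 371 ± 65.3, Gm14230 at 319 ± 15.8, Ndrg3 at 177 ± 2.52, Tgif2 at 128 ± 23.8, Necab3 at 16.8 ± 3.69 and Ttll9 at 9.83 ± 1.96. Neighbours in that order did not overlap except Ppp1r16b (297 to 421) and Gm14230 (306 to 337). In Ikzf4-/- cells Ppp1r16b came first at 933 ± 131, ahead of Samhd1 at 694 ± 21.7 and Gm14230 at 688 ± 62.2, whose libraries overlapped (669 to 708 and 616 to 726). Ndrg3 at 134 ± 7.28, Tgif2 at 119 ± 6.08, Necab3 at 35.5 ± 4.41 and Ttll9 at 1.54 ± 1.30 followed in the same order as in WT. These are levels over all annotated exons, so a gene that uses few of them is understated.

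**Figure D3:**
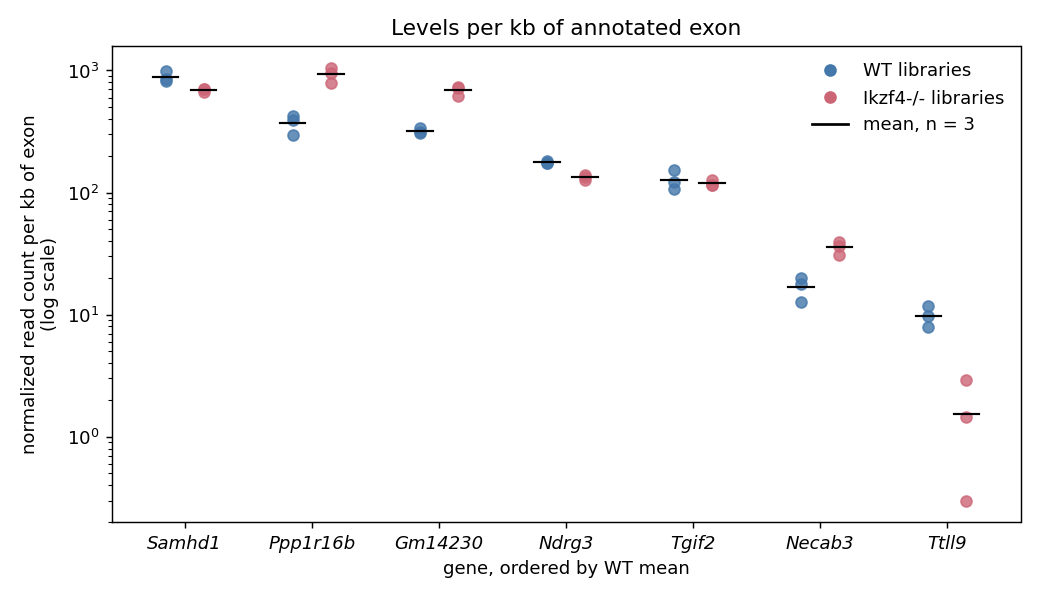
Normalized read count per kb of annotated exon (log axis) in each library, genes ordered by their WT mean, with black lines at the mean of 3 libraries. Ppp1r16b lies below Samhd1 in WT and above it in Ikzf4-/- libraries.

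The differing genes were interleaved with genes that were not called. Of 205 annotated genes in the span, 120 of them protein coding, 94 were tested and 7 were called (7.45%), 3 higher and 4 lower, a share that includes the chosen genes. Between consecutive genes in chromosome order lay 17 tested genes from Ttll9 to Necab3 (1.54 Mb), 45 from Necab3 to Gm14230 (2.27 Mb), none from Gm14230 to Tgif2, 5 from Tgif2 to Ndrg3, 3 from Ndrg3 to Samhd1 and 17 from Samhd1 to Ppp1r16b (1.53 Mb). Among these 87 other genes limma called 1 (1.15%, beside 1.77% of all genes tested), Tspyl3, a gene related to nucleosome assembly proteins. Tspyl3 had 1260, 1158 and 1216 normalized reads in WT and 1000, 930 and 919 in Ikzf4-/- libraries. These libraries did not overlap, and the log2 fold change was -0.35 (limma adjusted p = 0.0334). Tspyl3 was called in 1 of 6 fits that left out a library, without WT replicate 3, with adjusted p up to 0.124. With array weights limma called 5 of the 87 (5.75%), beside 3.24% of all genes tested. The authors' deposited table gives an adjusted p for 72 of the 87, under 0.05 for 8 (11.1%), beside 6.34% of all genes with one. The share was thus below that of all genes in the fit reported here and above it in both of these alternatives, and the difference in share was not tested. These 87 are what was left after genes with clear differences were chosen, which lowers such shares, so nothing is read from them.

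WT and Ikzf4-/- libraries did not overlap for 21 of the 87 other genes (24.1%), beside 23.1% of all genes tested. With the described genes included they did not overlap for 27 of 94 (28.7%), so the choice of those genes lowers the first share. The median log2 fold change of the 87 was -0.04, with 55 below and 32 above 0, and the median of all genes tested was 0.00. Of the genes in the span with a fitted change of 2-fold or more, 3 were uncalled. Tgm2, the gene of tissue transglutaminase, which cross-links proteins, had 15279, 4975 and 3610 normalized reads in WT and 2599, 2484 and 1818 in Ikzf4-/- libraries. WT replicate 1 alone was far above the rest, and the log2 fold change of -1.52 was not called (limma adjusted p = 0.0830). The other 2, Fam83c and 4930405A21Rik, had means under 50 in both genotypes. The table holds no sequence variants, and whether the genotypes carry the same chromosome 2 sequence was not tested.

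**Figure D4:**
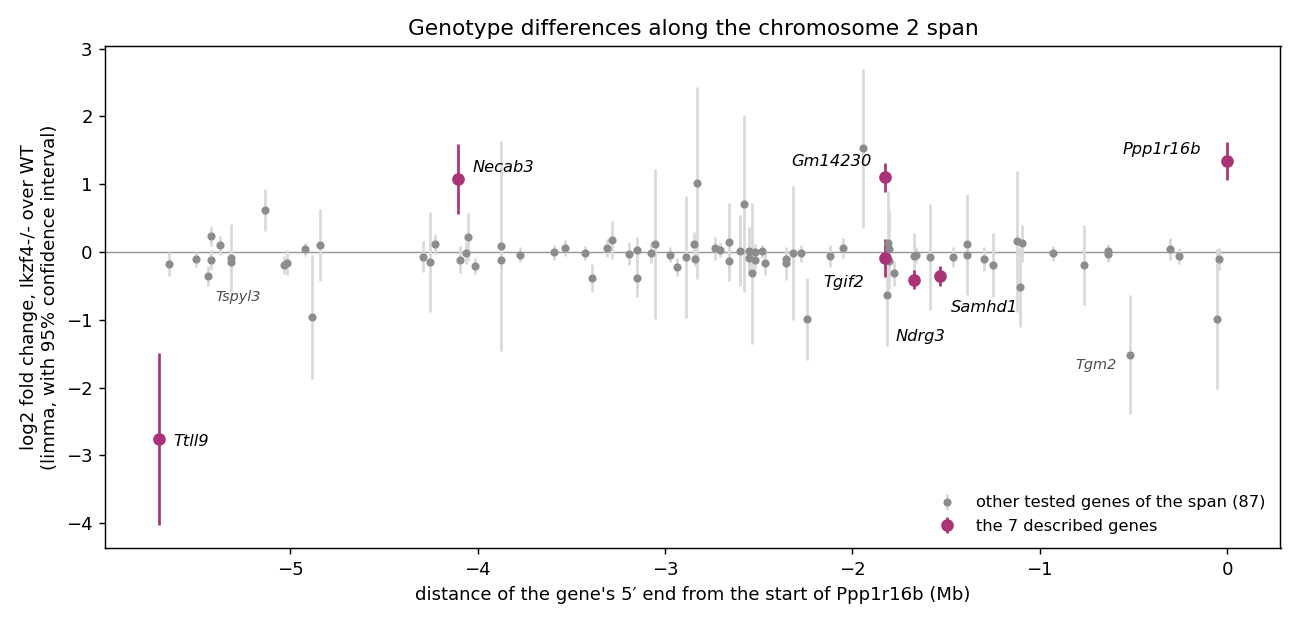
Log2 fold change (Ikzf4-/- over WT, limma, with 95% confidence interval) of the 94 tested genes, by the distance of each gene's 5′ end from the start of Ppp1r16b in Mb. The 7 described genes are coloured and go both ways, and the 87 others, left after the 7 were chosen, lie mostly near 0.

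Next-door genes were described for each of the 7. Ppp1r16b lies between Actr5, a subunit of the INO80 chromatin remodelling complex (log2 fold change -0.11, limma adjusted p = 0.474), and Fam83d, which acts at the mitotic spindle and starts 1758 bases after it (-0.27, 0.235). Necab3 lies 516 bases from E2f1, a transcription factor of the cell cycle (-0.11, 0.565), and 5042 bases from Cbfa2t2, a transcriptional corepressor (0.12, 0.397). Ttll9 lies 407 bases from Pdrg1 on the opposite strand (-0.17, 0.287) and 29276 bases from Foxs1, a forkhead gene with at most 26.2 normalized reads in any library (2.03, 0.263). Samhd1 lies between Soga1 (-0.08, 0.938) and Rbl1, the gene of the retinoblastoma-like protein p107 (-0.07, 0.622). Ndrg3 lies between the pseudogene Gm14276 (-0.07, 0.870) and Sla2, an adaptor that dampens T cell receptor signalling. Sla2 had 615, 713 and 704 normalized reads in WT and 542, 542 and 545 in Ikzf4-/- libraries, without overlap (-0.32, limma adjusted p = 0.0862). It was not called in the fit of all 6 libraries, but was called with array weights (-0.35, limma adjusted p = 0.0360) and without WT replicate 1 (-0.38, limma adjusted p = 0.0453), and its adjusted p in the authors' deposited table was 0.0410. On the other side of Gm14230, 4930405A21Rik, another noncoding gene, was fitted at 1.53 (limma adjusted p = 0.161) at low abundance. None of these neighbours was called by limma. Fam83d, Foxs1, 4930405A21Rik and Sla2 had an unadjusted p under 0.05, and Actr5, E2f1, Cbfa2t2, Pdrg1, Soga1, Rbl1 and Gm14276 had not. Among all genes tested 18.1% had such a p, a lower share than among these neighbours, and the difference was not tested.

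Outside the span, limma called none of 32 tested genes in the 2 Mb to the left (5 at an unadjusted p under 0.05, none in the authors' deposited table) and none of 7 in the 2 Mb to the right (3 at an unadjusted p under 0.05, 1 in the authors' deposited table), where 18.1% of all genes tested had an unadjusted p under 0.05. The span ends at the outermost chosen genes, so the lack of calls in these flanks is partly set by the choice, and nothing is read from it. In the rest of chromosome 2, 17 of 1028 tested genes were called (1.65%), 7 higher and 10 lower. Chromosome 2 as a whole had 24 of 1161 called (2.07%) and ranked 7 among chromosomes by that share. In windows of 5 Mb with at least 20 tested genes, 274 in number, the median share called was 0%, and 145 windows had no call. The window from 155 to 160 Mb of chromosome 2, which holds Gm14230, Tgif2, Ndrg3, Samhd1 and Ppp1r16b, had 4 of 70 called (5.71%), all 4 of them among the chosen genes. The window from 150 to 155 Mb had 3 of 71 (4.23%), namely the chosen Ttll9 and Necab3, and Tspyl3. By share, these windows ranked 17 and 41 of the 274, where the highest share was 11.1%. The genes were chosen on this same contrast, so nothing is read from these shares. The window of chromosome 10 with Ikzf4 had 5 of 88 called (5.68%), all lower, with the knocked-out Ikzf4 itself among the 5.

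Relatives and partners of the 7 genes were counted in lists drawn up from general knowledge. In the NDRG family, 1 of 3 tested relatives of Ndrg3 was called and lower, beside 1.2% of all genes tested. Ndrg2 had 1486, 1194 and 1032 normalized reads in WT and 752, 888 and 736 in Ikzf4-/- libraries, without overlap. Its log2 fold change was -0.63 (SE 0.12, limma adjusted p = 0.0355), called in 2 of 6 fits that left out 1 library, without WT replicate 1 and without WT replicate 3. Ndrg1, a stress-responsive member, had -0.90 (limma adjusted p = 0.0974) and Ndrg4 -0.34 (0.438), neither called.

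Of 21 tested genes beside Samhd1 in the list of dNTP synthesis and salvage, limma called none. An unadjusted p under 0.05 was held by 3 of them, and by 18.1% of all genes tested. Rrm1 and Rrm2, the subunits of ribonucleotide reductase, which makes deoxynucleotides, had log2 fold changes of 0.01 and 0.01. The median of the 21 was 0.01. Ada, adenosine deaminase, was the 1 gene of the 21 with an adjusted p under 0.05 in the authors' deposited table. That threshold was passed by 6.34% of all genes with an adjusted p there, and Ada is named after its values were seen. It had 185, 181 and 207 normalized reads in WT and 283, 276 and 267 in Ikzf4-/- libraries, which gave 0.53 on the log2 scale (limma adjusted p = 0.0522). It also lies on chromosome 2, at 163726584 to 163750239, beyond the 2 Mb to the right of the span.

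Of 12 tested PP1 subunits and regulators beside Ppp1r16b, limma called none, with 5 at an unadjusted p under 0.05 (18.1% of all genes tested reached it) and 1 with an adjusted p under 0.05 in the authors' deposited table. The catalytic subunits Ppp1ca (-0.13), Ppp1cc (-0.02, slightly positive with equal library totals or array weights) and Ppp1cb (-0.10) had small log2 fold changes. Ppp1r16a, the closest relative of Ppp1r16b, had 1065 ± 28.1 normalized reads in WT and 1090 ± 25.6 in Ikzf4-/- cells (SD, n = 3 each), a difference of 0.03 on the log2 scale (limma adjusted p = 0.825). Of 9 tested relatives of Ttll9 limma called none, with 1 at an unadjusted p under 0.05 and none in the authors' deposited table, and the 3 most abundant were Ttll12 (-0.02, 0.00 with equal library totals), Ttll4 (0.02) and Ttll5 (-0.04). Of 4 tested relatives and partners of Necab3 limma called none, with none at an unadjusted p under 0.05 and none in the authors' deposited table. Of 9 tested partners and relatives of Tgif2 limma called none, with 3 at an unadjusted p under 0.05. Ski (-0.21), a SMAD corepressor, and Tgif1 (0.34), the paralog of Tgif2, had an adjusted p under 0.05 in the authors' deposited table. The general shares beside these lists are 18.1% at an unadjusted p under 0.05 and 6.34% in the authors' deposited table. Differences in share were not tested.

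Variation among libraries of the same genotype was compared between genes after removing each genotype's mean, a measure that the genotype difference does not enter. Over the 6 libraries, Pearson's r ran from -0.73 for Ttll9 and Gm14230 (rho -0.49, two-sided exact permutation p = 0.361 and 0.583, adjusted 0.792 and 0.858) to 0.71 for Gm14230 and Samhd1 (rho 0.77, two-sided exact permutation p = 0.0556 and 0.111, adjusted 0.583 and 0.858). Without the 2 libraries in which the first-named gene lay farthest from its median, r was -0.26 and 0.68. Spearman's rho was highest for Ttll9 and Tgif2, at 0.89 (r = 0.44, two-sided exact permutation p = 0.0278 and 0.0556, adjusted 0.583 and 0.583), and r was 0.85 without the 2 farthest libraries. Of the 21 pairs, 8 were positive and 13 negative, and none had an adjusted p below 0.583. Only 36 arrangements within genotypes are possible, so p cannot go below 0.0278. Adjusted over 21 pairs, a single pair at that p comes to 0.583. No lone pair could therefore have had a lower adjusted p, and nothing is read from its absence. The genes most like Ppp1r16b by this measure, of 11739 compared, were Klc4 (r = 0.998), Mlycd (0.997) and Fam122a (0.997). They were picked as the highest, so no p is given, none of them was called, and 456 genes had an r of 0.9 or more over these 6 libraries.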

How the data were processed

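Per the labels' protocols, library preparation and sequencing were done by a commercial provider. Per the submitters' processing notes, Trimmomatic 0.36, STAR 2.5.2b and DESeq2 were used, with the builds GRCm38 and mm10. The counting tool, its use of strand and the annotation are not given in the sources used here. The deposited table holds a never-negative signal per gene and library, read here as normalized read counts, since each library's values are whole multiples of 1 step. It also holds the authors' log2 fold changes, p-values and adjusted p-values, the last not given for 2019 genes. No other per-sample columns were present.

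Values were transformed to log2(value + 1), and 14864 genes with a mean of at least 10 were fitted with limma 3.58.1 in R 4.3.3 (trend, genotype as the only term), with two-sided p-values adjusted by Benjamini-Hochberg over all of them. Genes were placed by identifier on GENCODE M21 (14836 of 14868), and promoters came from RefSeq. Deviations from the genotype mean correlated at 0.145, 0.0122 and 0.142 between same-numbered replicates. Different-numbered replicates were not compared, so these values cannot decide whether numbers pair libraries. No pairing was used in the main fit. The procedure was tested on simulated data. The genes described, the gene lists and the span were chosen with earlier results of these data known. Other genes named were the table's next genes on either side, called genes of the span, each list's called genes and its 3 most abundant uncalled ones, and the 3 most like Ppp1r16b; any further gene was chosen after its values were seen. One result under this rule is not reported here. The alternatives were other scalings, filters, pseudocounts, array weights, a replicate block, a threshold of 0.01, each library left out, and the authors' calls.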

Additional observations from a re-analysis of the deposited data

How the results depend on the processing

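Of the 14864 genes tested, 263 were called, and the count was 256 to 283 with other scalings, filters and pseudocounts, 16 at an adjusted p under 0.01, 482 with array weights, 815 in the authors' deposited table, 754 with the replicate block, and 20 (without Ikzf4-/- replicate 3) to 523 (without WT replicate 3) with 1 library left out. Of the 94 tested genes of the span, 7 were called, with 2 at an adjusted p under 0.01, 11 with array weights, 13 in the authors' deposited table, 12 with the replicate block, and 2 to 7 with 1 library left out. Of the 87 genes of the span besides those described, 1 was called, with 2 at equal library totals, 0 at an adjusted p under 0.01, 5 with array weights, 8 in the authors' deposited table, 6 (6.90%) with the replicate block, beside 5.07% of all genes tested, and 0 to 2 with 1 library left out. Of the 7 described genes, 6 were called, with 2 at an adjusted p under 0.01, 4 with a pseudocount of 0.1 (not called then: Ttll9 and Necab3), 5 with a minimum of 10 in every library (Ttll9 was then not tested), 5 in the authors' deposited table, 6 with the replicate block, and 2 to 5 with 1 library left out. Whether the replicate numbers pair libraries was not settled, and the block was tried as an alternative only. The cause of these shifts was not tested.

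Among the alternatives run for single genes, 569 left sign and call as they were, 28 removed a call, 4 added one and 32 turned the sign. Sign changes concerned uncalled genes near 0: 5430405H02Rik (-0.11 with array weights), Hdac1 (0.017 with quantile scaling and 0.017 with equal library totals), Hif1an (-0.00020 with array weights), Ppp1cc (0.0040 with equal library totals and 0.0013 with array weights), Rrm2 (-0.011 with array weights) and Ttll12 (0.0034 with equal library totals). With 1 library left out, sign changes occurred for Tgif2 (-0.21 to 0.054), Soga1 (-0.28 to 0.13), Rbl1 (-0.14 to 0.0069), Gm14276 (-0.17 to 0.038), 5430405H02Rik (-0.20 to 0.23), Hdac1 (-0.024 to 0.015), Hif1an (-0.022 to 0.080), Nek2 (-0.016 to 0.039), Rrm1 (-0.011 to 0.023), Rrm2 (-0.014 to 0.036), Ttll12 (-0.075 to 0.015), Ttll4 (-0.024 to 0.098) and Ttll5 (-0.10 to 0.018).

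The count tests planned for whole reads (edgeR and DESeq2) were not run, because the acceptance rule applied here did not take the columns of 2 Ikzf4-/- libraries (replicates 1 and 3), whose steps are close to 1, as recovered reads, although 100% of their values lay within 0.1 of a whole multiple of the step. Depth limits Ttll9 most, at 1.05 to 10.1 normalized reads in Ikzf4-/- libraries.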
